A study of Mus musculus with 12 samples.

Results

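The interferon response genes described here are 36 mouse genes known to be induced by interferon, chosen as a list of symbols by role. Of these, 33 had a probe set (a group of array probes summarised to 1 value) that carried their symbol alone, and all 33 entered the tests among 22154 genes. Oas1a and Gbp2 lie on probe sets of several symbols and Ifi44 has no probe set under that symbol, so these 3 were not analysed here. The measured genes comprise 5 sensors of nucleic acid, 4 transcription factors, 12 antiviral effectors, 5 GTPases of the Gbp and Irg families, 2 genes of the ISG15 system and 5 other induced genes.

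RNA was measured on 12 single-colour Affymetrix arrays of medullary thymic epithelial cells (mTECs), stromal cells that show developing T cells a wide range of self antigens. Live cells negative for CD45 and Ly51-low, with Epcam and UEA binding, were sorted by their MHC class II level into a high fraction (mTEChi) and a low one (mTEClo). All mice were C57BL/6 aged 4 weeks. The mTEChi groups were Aire-/-, Aire+/+, Brg1-/- and Brg1+/+, with 2 arrays each, and the mTEClo groups were the same 4 genotypes, with 1 array each. Aire is a transcriptional regulator that allows mTECs to express tissue-restricted genes, and Brg1, encoded by Smarca4, is an ATPase of the SWI/SNF chromatin remodelling complexes. The labels do not say how the Brg1 allele was deleted, in which cells, or whether the 2 arrays of a group came from separate animals, so p-values cover the variation among these arrays, part of which may be technical.

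Type I interferons (the alpha and beta families) and type III interferons (lambda) bind different receptors, but both activate the kinases Jak1 and Tyk2 and the factor ISGF3, which contains Stat2 and Irf9. ISGF3 binds the interferon-stimulated response element (ISRE) in the promoters of antiviral genes, whereas interferon gamma acts mainly through gamma-activated sites (GAS). The thymic medulla is known to make type I interferon in the absence of infection.

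The ISRE letters were searched in RefSeq promoters (assembly GRCm38.p6), each spanning 250 bases before to 50 bases after a transcript's start. Of the 33 measured genes, 25 had a promoter in that table. The letters GAAA, any 2 bases and GAAA again, or TTTC, any 2 bases and TTTC when read from the other strand, occurred in 16 of these 25 genes, against 3.99% of all genes in the table (3.44% of its 32851 promoters). A GAS, searched as TTCNNNGAA (its own reverse complement), occurred in 8 of 25, against 9.55% of all genes (8.3% of promoters), and 5 genes held both kinds of letters, which can share bases. Parts of 6 promoters that hold ISRE letters upstream of the start are printed below on the strand of the gene, with the ISRE letters and any overlapping matches in capitals. The first 4 belong to genes whose intensity was lower in mTEChi than in mTEClo in the test described further on. The last 2 belong to genes that did not pass that test and that carry the same letters.
Isg15 (chr4:156200850-156200921, minus strand): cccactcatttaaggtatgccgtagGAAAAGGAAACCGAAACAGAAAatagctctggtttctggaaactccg
Bst2 (chr8:71537562-71537627, minus strand): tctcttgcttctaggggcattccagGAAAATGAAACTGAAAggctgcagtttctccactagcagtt
Gbp3 (chr3:142559974-142560039, plus strand): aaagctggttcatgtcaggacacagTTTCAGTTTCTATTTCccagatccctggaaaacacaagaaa
Trim30a (chr7:104465195-104465254, minus strand): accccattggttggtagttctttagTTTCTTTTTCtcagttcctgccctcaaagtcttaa
Ifit1 (chr19:34640760-34640838, plus strand): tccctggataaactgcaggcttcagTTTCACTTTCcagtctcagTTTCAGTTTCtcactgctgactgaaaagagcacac
Igtp (chr11:58199497-58199555, plus strand): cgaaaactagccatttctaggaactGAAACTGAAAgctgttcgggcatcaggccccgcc

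The Isg15 window holds 3 overlapping matches in 1 run. Bst2 and Gbp3 hold 2 overlapping matches each, Ifit1 holds 2 that lie apart, and Trim30a and Igtp hold 1. Of the 8 genes lower in mTEChi that had a promoter in the table, 7 held ISRE letters, and the other was Xaf1. Among the 17 other genes with a promoter, 9 held them. These matches describe the letters in that window and do not show binding.

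The array intensities are given on the log2 scale, and array medians lay between 5.07 and 5.32. Of 10 mTEC markers measured, 4 passed in the same test, Aire, Fezf2, Cd80 and Cd86, all higher in mTEChi. The MHC class II genes H2-Aa (11.07 to 12.15 in mTEChi, 10.31 to 10.83 in mTEClo) and H2-Ab1 (12.89 to 13.21, 12.45 to 12.76) did not pass. Krt14 did not pass either, but read lower in mTEChi without overlap, at 10.57 to 11.68 against 11.87 to 12.10 in mTEClo. Epcam read 8.41 to 9.23 in mTEChi and 9.15 to 9.29 in mTEClo. On its own probe set, Aire had log2 intensities of 9.01 and 9.73 in Aire-/- mTEChi, against 8.04 and 8.80 in Aire+/+ mTEChi. The sources used here do not place the probes relative to the deleted part, so it does not check the genotype, and 171 genes passed as lower in Aire-/- mTEChi. For Smarca4 the values were 5.88 and 5.44 in Brg1-/- mTEChi, against 6.13 and 6.89 in Brg1+/+ mTEChi, and 5.47 in Brg1-/- mTEClo, against 5.95 in Brg1+/+ mTEClo.

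The arrays numbered 2, which exist in mTEChi alone, stood apart from those numbered 1. Their medians were 5.07 to 5.12, against 5.25 to 5.32 on the arrays numbered 1. Across all genes, the difference between the arrays of a group correlated between the 4 mTEChi groups with r of 0.552 to 0.657. Among the interferon response genes, 10 of 33 were higher on the array numbered 2 in all 4 mTEChi groups (18.3% of all genes) and 15 were lower (32.1% of all genes). Irf7, which drives type I interferon genes, was higher on array 2 by 0.96 in Aire-/-, 0.88 in Aire+/+, 1.12 in Brg1-/- and 1.84 in Brg1+/+. Xaf1, a gene of apoptosis control, differed by -1.06, -1.26, -1.25 and -1.36 in the same groups. Genes of 1 pathway therefore differed in opposite directions between the array numbers. Because all mTEClo arrays are numbered 1, differences between mTEChi and mTEClo with the 4 genotypes averaged are also given on the arrays numbered 1 for the genes that passed.

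**Figure D1:**
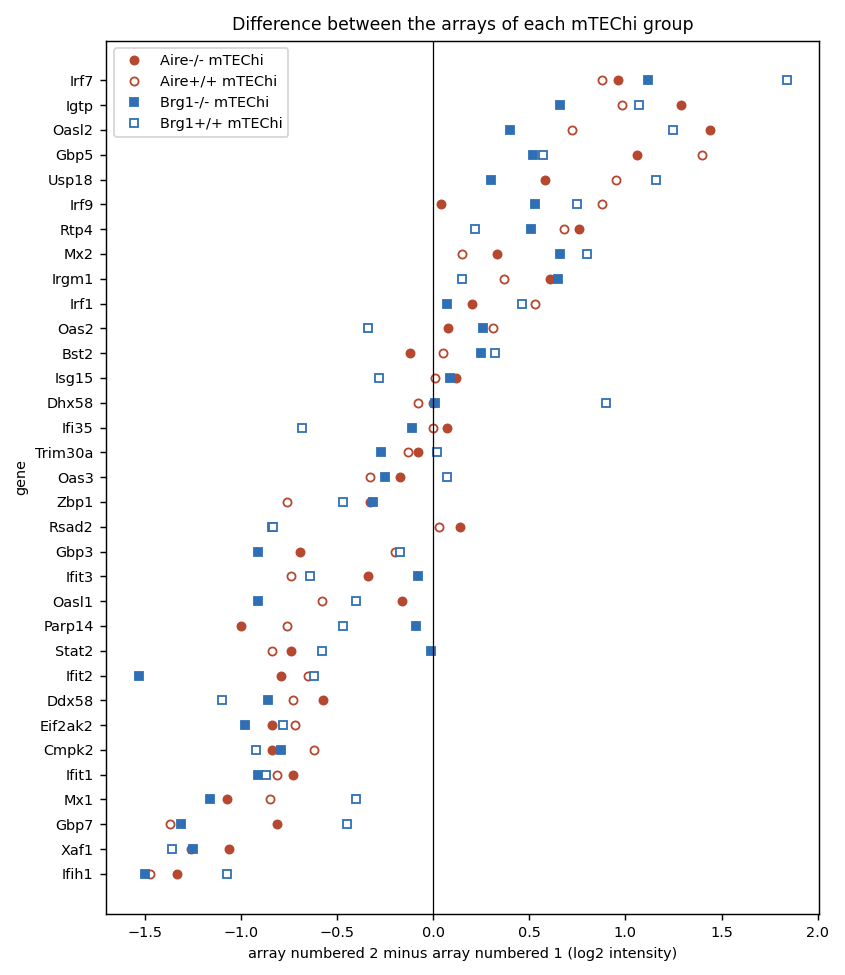
Difference in log2 intensity between the array numbered 2 and the array numbered 1 of each mTEChi group (x axis), for the 33 interferon response genes (y axis), sorted by their median. Points of the 4 groups lie on the same side of 0 for 25 genes, 10 of them higher and 15 lower on array 2, with Irf7 at the top and Ifih1 at the bottom.

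The clearest difference among the interferon response genes lay between the sorted fractions. With the 4 genotypes averaged (8 arrays against 4), 11 of 33 genes passed as lower in mTEChi (2.11% of all genes) and 0 as higher (3.67% of all genes), by limma with Benjamini-Hochberg adjustment over all genes at a threshold of 0.05. At an unadjusted p under 0.05 the count was 18 of 33 in either direction, against 4442 of 22154 genes. The median log2 difference was -0.70 over the 33 genes and -0.10 over all genes, and 29 of 33 lay below 0 (87.9%), against 61.0% of all genes. The lower genes span RNA sensing (Ddx58, Eif2ak2), signalling (Stat2), virus restriction (Bst2, Mx2) and ISG15 itself, and they were lower by 1.90-fold to 5.20-fold. Since these are bulk samples, fewer responding cells and less RNA per cell cannot be told apart.

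**Figure D2:**
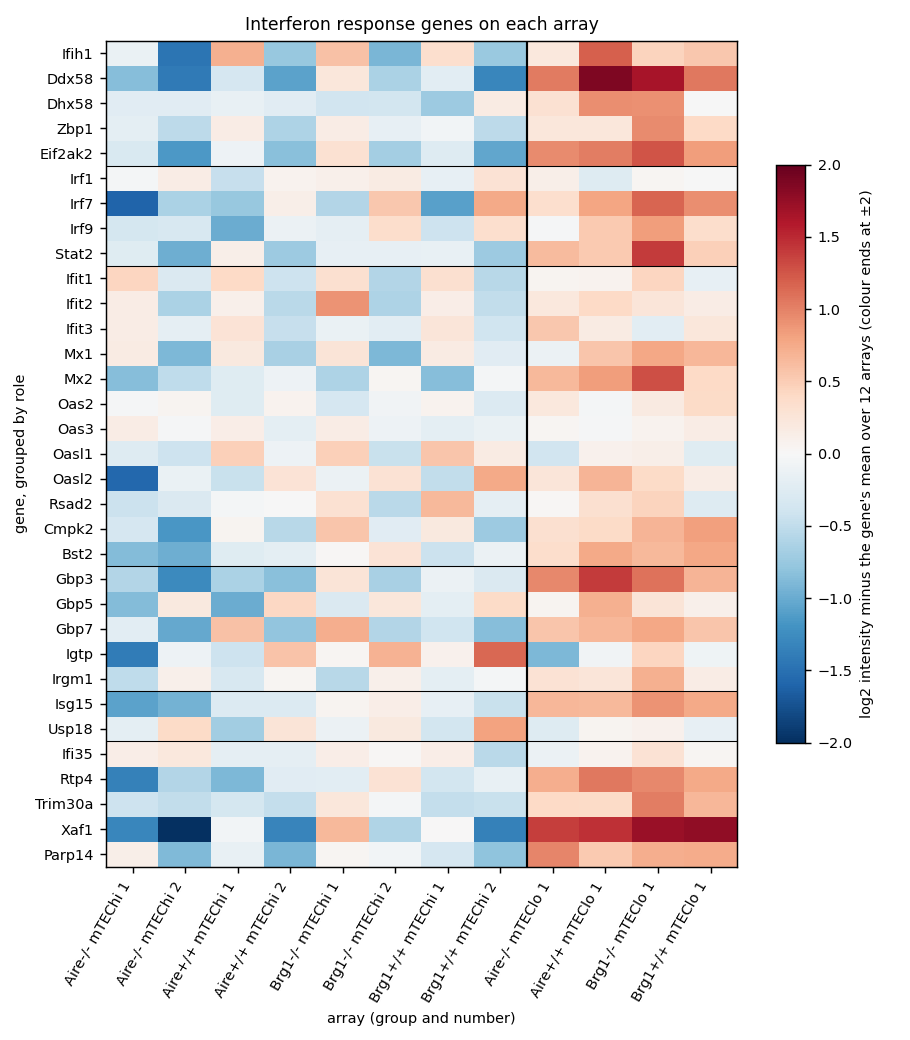
Log2 intensity of each interferon response gene minus its own mean over the 12 arrays (colour), by gene (rows, grouped by role with lines between the roles: sensors, transcription factors, antiviral effectors, GTPases, ISG15 system, other induced genes) and array (columns, mTEChi left and mTEClo right of the vertical line). The median deviation over the 33 genes lay between -0.51 and 0.10 on the mTEChi arrays and between 0.30 and 0.71 on the mTEClo arrays.

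Among the 5 sensors, 2 passed as lower in mTEChi, and the median difference was -0.89. Ddx58, which encodes RIG-I, a cytoplasmic sensor of viral RNA ends, had a lowest, median and highest log2 intensity of 4.45, 5.13 and 6.10 in mTEChi, against 6.91 (Aire-/-), 7.74 (Aire+/+), 7.52 (Brg1-/-) and 6.92 (Brg1+/+) in mTEClo. No mTEChi array reached the lowest mTEClo array. The difference was -2.10 (SE 0.297, adjusted p = 0.00705), a 4.29-fold lower intensity, and it was -1.70 on the arrays numbered 1. Eif2ak2, the kinase PKR that stops translation when it binds double-stranded RNA, ranged from 4.70 through a median of 5.36 to 6.15 in mTEChi, against 6.69 to 7.10 in mTEClo, again without overlap. It differed by -1.53 (SE 0.296, adjusted p = 0.0255) and by -1.11 on the arrays numbered 1.

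The other 3 sensors did not pass. Zbp1, a sensor of Z-form nucleic acid, spanned 8.18 to 8.95 in mTEChi, against 9.02 to 9.74 in mTEClo, and its arrays did not overlap although its adjusted p was 0.123 (difference -0.67, SE 0.207, and -0.44 on the arrays numbered 1). Dhx58, the RIG-I relative LGP2, differed by -0.81 (adjusted p = 0.0592) and passed on the arrays numbered 1 at -0.91 (adjusted p = 0.0181). Ifih1, which encodes the long double-stranded RNA sensor MDA5, differed by -0.89 (adjusted p = 0.318). On the arrays numbered 1 the Ifih1 difference was -0.22, and the sign was mixed between genotypes.

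Of the 4 transcription factors, Stat2 passed as lower. Stat2, the ISGF3 subunit that holds the receptor-activated complex together with Irf9, had 5.23, 6.01 and 6.33 as its lowest, median and highest log2 intensity in mTEChi, against 6.85 (Aire-/-), 6.74 (Aire+/+), 7.61 (Brg1-/-) and 6.68 (Brg1+/+) in mTEClo. Its groups did not overlap, and the difference was -1.14 (SE 0.240, adjusted p = 0.0354). Irf7 ranged from 5.79 to 8.15 in mTEChi, against 7.73 to 8.56 in mTEClo, and the ranges overlapped. Its difference was -1.21 (SE 0.421, adjusted p = 0.162), and on the arrays numbered 1 it was -1.81 (SE 0.130, adjusted p = 0.00109), with -1.94, -1.54, -1.75 and -2.01 in Aire-/-, Aire+/+, Brg1-/- and Brg1+/+. Irf9 differed by -0.63 (adjusted p = 0.201) and passed on the arrays numbered 1 at -0.91 (adjusted p = 0.0373). Irf1, a factor induced strongly by interferon gamma, had means of 7.05 in mTEChi and 7.01 in mTEClo, a difference of 0.04 (SE 0.177).

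Of the 12 antiviral effectors, 2 passed as lower, and the median difference was -0.33. Bst2, or tetherin, which holds budding virus at the cell surface, had 10.42, 11.19 and 11.67 as its lowest, median and highest values in mTEChi, against 11.76 (Aire-/-), 12.16 (Aire+/+), 12.05 (Brg1-/-) and 12.18 (Brg1+/+) in mTEClo. The highest mTEChi array, Brg1-/- numbered 2, stood just under the lowest mTEClo array. The difference was -0.95 (SE 0.149, adjusted p = 0.0109), and -1.01 on the arrays numbered 1. Mx2, a dynamin-like antiviral GTPase, ranged from 4.75 to 5.63 in mTEChi, against 6.00 to 6.88 in mTEClo, and differed by -1.19 (SE 0.219, adjusted p = 0.0208).

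The other 10 effectors did not pass, and all but Oasl1 had a difference below 0. Mx1, a relative of Mx2, had means of 4.74 in mTEChi and 5.44 in mTEClo, with overlapping arrays (difference -0.70, SE 0.320, adjusted p = 0.276). The Ifit proteins bind foreign RNA: Ifit1 had means of 7.56 in mTEChi and 7.70 in mTEClo (difference -0.14, SE 0.296), Ifit2 differed by -0.38 and Ifit3 by -0.27. Rsad2, or viperin, which makes a chain-terminating nucleotide, differed by -0.20 (SE 0.231), and Cmpk2, its neighbour on the chromosome, by -0.83 (adjusted p = 0.161). The Oas enzymes make the oligoadenylate that activates RNase L, and Oas2 and Oas3 differed by -0.28 and -0.08. Their relatives Oasl1 and Oasl2 differed by 0.16 and -0.54. Oasl1 was the one gene of the 33 that read higher in mTEChi in all 4 genotypes on the arrays numbered 1 (0.13 to 0.81), a pattern that 13.3% of all genes showed. Oasl2 passed as lower on those arrays (-1.02, adjusted p = 0.0384).

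Gbp3 was the GTPase that passed among 5. Guanylate-binding proteins gather on the membranes around intracellular pathogens. Its lowest, median and highest values were 4.26, 4.92 and 5.79 in mTEChi, against 6.49 (Aire-/-), 6.92 (Aire+/+), 6.61 (Brg1-/-) and 6.21 (Brg1+/+) in mTEClo. The groups did not overlap, and the difference was -1.54 (SE 0.228, adjusted p = 0.00851), a 2.92-fold lower intensity. Irgm1, which regulates the other Irg GTPases, also did not overlap between 5.31 to 5.96 in mTEChi and 6.02 to 6.57 in mTEClo, with a difference of -0.52 (adjusted p = 0.21) and of -0.74 on the arrays numbered 1 (adjusted p = 0.0426). Gbp7, Gbp5 and Igtp differed by -0.95, -0.42 and 0.24 and overlapped.

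Within the ISG15 system, RNA of the gene for the conjugated protein was lower in mTEChi. The gene for the enzyme that removes this protein did not pass. Isg15, a ubiquitin-like protein attached to other proteins after interferon, had 9.62, 10.42 and 10.83 as its lowest, median and highest values in mTEChi, against 11.36 (Aire-/-), 11.34 (Aire+/+), 11.59 (Brg1-/-) and 11.45 (Brg1+/+) in mTEClo. The 4 mTEClo arrays lay within a narrow band above all 8 mTEChi arrays. The difference was -1.12 (SE 0.142, adjusted p = 0.00446), and it was -1.11 on the arrays numbered 1. Usp18, the protease that takes Isg15 off its targets and dampens receptor signalling, had means of 8.34 in mTEChi and 8.24 in mTEClo, a difference of 0.10 (SE 0.291).

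Of the 5 other induced genes, 4 passed as lower, and the median difference was -1.12. Xaf1, which antagonises the apoptosis inhibitor XIAP, had the lowest difference of the 33 genes over all arrays, whereas on the arrays numbered 1 Irf7 lay lower. It had 6.31, 7.72 and 9.32 as its lowest, median and highest values in mTEChi, against 10.05 (Aire-/-), 10.13 (Aire+/+), 10.40 (Brg1-/-) and 10.45 (Brg1+/+) in mTEClo. The difference was -2.38 (SE 0.414, adjusted p = 0.0165), or 5.20-fold, and -1.76 on the arrays numbered 1. Rtp4, a chaperone-like protein induced by interferon, had means of 6.27 in mTEChi and 7.58 in mTEClo (difference -1.31, SE 0.227, adjusted p = 0.016). Parp14, an ADP-ribosyltransferase, had means of 5.99 and 7.10 in mTEChi and mTEClo (difference -1.12, SE 0.251, adjusted p = 0.046). Trim30a, a tripartite motif protein that limits Toll-like receptor signalling in mouse, spanned 4.43 to 5.15 in mTEChi and 5.30 to 5.95 in mTEClo (difference -0.92, SE 0.142, adjusted p = 0.00989). Ifi35 differed by -0.11 (SE 0.172).

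**Figure D3:**
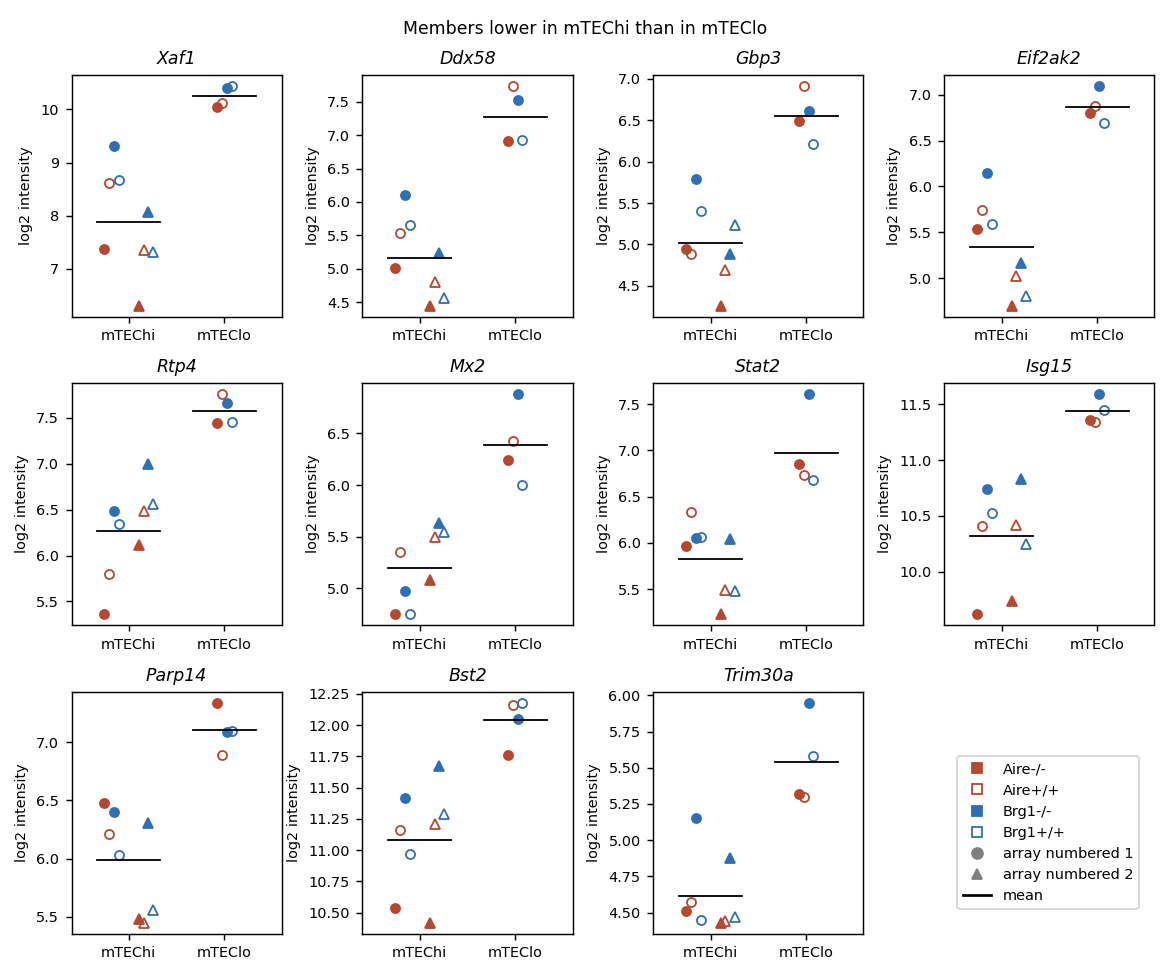
Log2 intensity of the 11 interferon response genes that passed as lower in mTEChi, by array, with mTEChi (8 arrays) left and mTEClo (4 arrays) right in each panel. Colour and fill give the genotype, shape the array number and the bar the mean of the arrays, and no mTEChi array reached the lowest mTEClo array in any panel.

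Arrays that did not overlap between the fractions, with mTEChi lower, were found for 13 of 33 genes (5.58% of all genes), and with mTEChi higher for 0 (3.63% of all genes). On the arrays numbered 1 (4 against 4, with genotype as a block), 16 of 33 genes passed as lower (4.49% of all genes) and 0 as higher (4.92%), including all 11 named above. The difference there was -0.87 for Stat2 (adjusted p = 0.0433), -1.43 for Mx2, -1.30 for Gbp3, -1.58 for Rtp4, -0.82 for Parp14 and -0.87 for Trim30a. On those arrays 21 of 33 genes read lower in mTEChi in each of the 4 genotypes, as 18.8% of all genes did. The count of 11 rests on 4 mTEClo arrays: it was 5 without the Aire-/- mTEClo array, 7 without Aire+/+ mTEClo, 7 without Brg1-/- mTEClo and 8 without Brg1+/+ mTEClo. Isg15, Bst2, Ddx58, Gbp3 and Trim30a passed under each alternative run for them, whereas the highest adjusted p over alternatives was 0.116 for Stat2, 0.115 for Parp14, 0.0715 for Mx2, 0.0617 for Eif2ak2, 0.0582 for Xaf1 and 0.0552 for Rtp4.

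In the wild types alone (4 mTEChi arrays against 2 mTEClo arrays), Ddx58 was the 1 gene of 33 that passed as lower in mTEChi (0.632% of all genes), and 0 passed as higher (1.93%). At an unadjusted p under 0.05 the limma count was 12 of 33, against 2841 of 22154 genes. The Ddx58 log2 intensities were 5.53 and 4.80 (Aire+/+) and 5.66 and 4.56 (Brg1+/+) in mTEChi, against 7.74 (Aire+/+) and 6.92 (Brg1+/+) in mTEClo (difference -2.19, SE 0.420, adjusted p = 0.0429). The median difference over the 33 genes was -0.73, and Isg15 (-0.99, adjusted p = 0.0526), Bst2 (-1.01, adjusted p = 0.0586), Trim30a (-0.96, adjusted p = 0.0592) and Gbp3 (-1.51, adjusted p = 0.0643) lay just outside the threshold. Arrays did not overlap, with mTEChi lower, for 18 genes, as for 17.7% of all genes. Beside those named, these included Xaf1 (-2.30), Eif2ak2 (-1.50), Rtp4 (-1.32), Parp14 (-1.18), Irf7 (-1.10) and Mx2 (-0.93). The Ddx58 call was lost when any 1 mTEChi array other than Brg1+/+ numbered 1, or either wild-type mTEClo array, was left out, and 7 genes passed as lower on the arrays numbered 1 (1.23% of all genes) and 0 as higher (3.09%).

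Genes that encode the interferons themselves were read in the same comparison. Of 21 ligand genes listed, 19 were measured. With the 4 genotypes averaged, 3 of them passed as higher in mTEChi (3.67% of all genes) and 0 as lower (2.11%), the others did not pass, and the median difference over the 19 was 0.14. Ifnb1, interferon beta, had 6.03, 7.57 and 8.64 as its lowest, median and highest values in mTEChi, against 4.62 (Aire-/-), 4.88 (Aire+/+), 4.75 (Brg1-/-) and 4.37 (Brg1+/+) in mTEClo. All 8 mTEChi arrays lay above all 4 mTEClo arrays, and the difference was 2.68 (SE 0.253, adjusted p = 0.00143), a 6.43-fold higher intensity. Ifnl3 had means of 9.20 in mTEChi and 6.51 in mTEClo (difference 2.69, SE 0.257, adjusted p = 0.00148), and Ifnl2 had means of 9.49 and 8.19 in mTEChi and mTEClo (difference 1.30, SE 0.237, adjusted p = 0.0199). Both encode interferon lambda and are close copies, as are members of the Ifna, Gbp, Ifit, Mx, Oas and Slfn families, so a probe set may read more than 1 of them. On the arrays numbered 1 the differences were 2.84 for Ifnb1, 2.48 for Ifnl3 and 1.06 for Ifnl2. Ifnb1 (2.79) and Ifnl3 (2.96) also passed in the wild types alone, with adjusted p of up to 0.0872 and 0.0823 when 1 of the 2 wild-type mTEClo arrays was left out. Ifng, the gene of interferon gamma, read 5.40 to 6.64 in mTEChi and 5.41 to 5.79 in mTEClo.

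All 6 receptor genes were measured, and 2 passed as lower in mTEChi (2.11% of all genes) and 0 as higher (3.67%). Ifngr1, the ligand-binding chain of the interferon gamma receptor, had 5.61, 6.04 and 6.49 as its lowest, median and highest values in mTEChi, against 7.42 (Aire-/-), 7.97 (Aire+/+), 7.39 (Brg1-/-) and 7.39 (Brg1+/+) in mTEClo. The difference was -1.47 (SE 0.185, adjusted p = 0.00435), it was -1.28 on the arrays numbered 1, and it was -1.58 in the wild types alone (adjusted p = 0.0246). The wild-type call was lost in 7 of 18 alternatives, with adjusted p = 0.0706 on the arrays numbered 1 and 0.498 without the Aire+/+ mTEClo array. Ifnar2, a chain of the type I receptor, had means of 7.94 in mTEChi and 8.66 in mTEClo (difference -0.72, SE 0.144, adjusted p = 0.0282), with adjusted p of up to 0.101 when single arrays were left out, and it was -0.76 on the arrays numbered 1. Ifnlr1, the chain specific to the lambda receptor, differed by -0.28 (SE 0.196, adjusted p = 0.456), and Ifngr2 by -0.73 (adjusted p = 0.242).

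**Figure D4:**
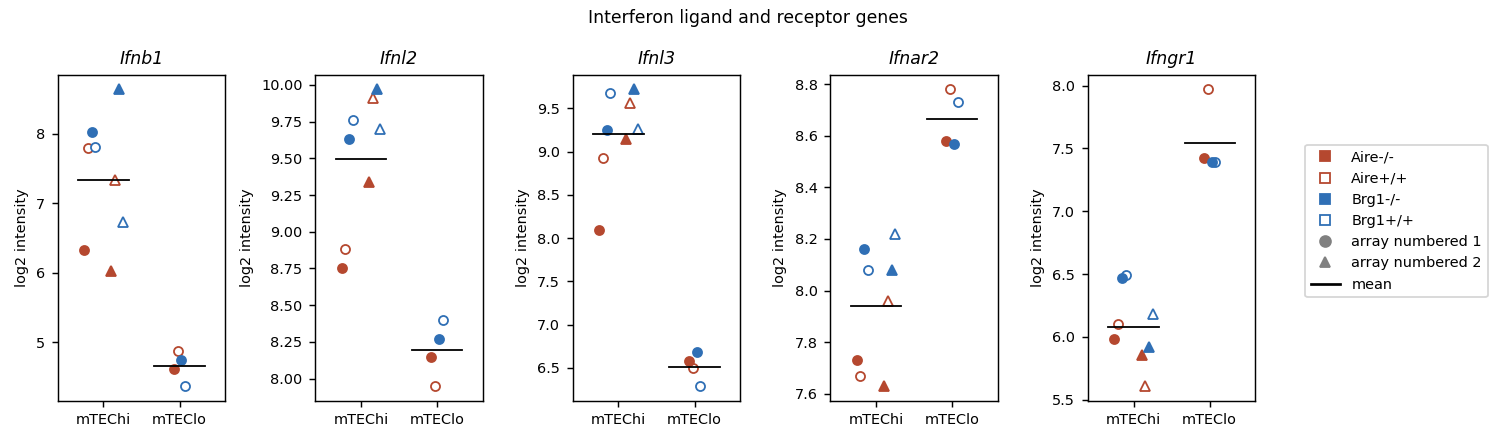
Log2 intensity of the ligand genes Ifnb1, Ifnl2 and Ifnl3 and the receptor genes Ifnar2 and Ifngr1 by array, with mTEChi (8 arrays) left and mTEClo (4 arrays) right. Colour and fill give the genotype, shape the array number and the bar the mean of the arrays; the 3 ligand genes lie higher and the 2 receptor genes lower in mTEChi, with no overlap.

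Genes that carry the signal were read in the same way. Of 7 JAK-STAT genes measured (9 listed) and 13 genes of nucleic acid sensing (14 listed), 0 passed in either direction, where 2.11% of all genes passed as lower and 3.67% as higher. Among them Irf3, a factor that turns on Ifnb1, differed by -0.51 (adjusted p = 0.101), Tlr3, a receptor for double-stranded RNA, by -1.55 (adjusted p = 0.0934) and Adar, which edits double-stranded RNA, by -0.55 (adjusted p = 0.0933). Of 8 negative regulators, Socs3, an inhibitor of Jak kinases, passed as lower at -1.07 (adjusted p = 0.0382) and at -0.83 on the arrays numbered 1 (adjusted p = 0.0286). The Socs3 call was lost in 9 of 20 alternatives, each of which left out 1 array, with adjusted p of up to 0.125. Socs1, the inhibitor best known for interferon receptors, read 8.72 to 10.30 in mTEChi and 8.58 to 8.92 in mTEClo. In mTEChi it read 8.72 to 9.19 on the arrays numbered 1 and 9.96 to 10.30 on those numbered 2.

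A second list of 65 interferon-induced genes, of which 55 were measured, was read beside the members. In it 7 of 55 genes passed as lower in mTEChi (2.11% of all genes) and 2 as higher (3.67%), and the median difference was 0.00. The lower genes included Ddx60 (-1.62), a helicase that aids RIG-I, Iigp1 (-1.39), an Irg GTPase, Ifi204 (-1.31), a DNA sensor, Phf11d (-1.50) and Ifitm3 (-0.72), which blocks virus entry. Samd9l (-1.01) and Slfn5 (-0.82) were the other 2 lower genes. Gbp4, a guanylate-binding protein like Gbp3, went the other way. It had 7.20, 7.52 and 7.79 as its lowest, median and highest values in mTEChi, against 6.30 (Aire-/-), 5.39 (Aire+/+), 6.14 (Brg1-/-) and 5.12 (Brg1+/+) in mTEClo (difference 1.77, SE 0.155, adjusted p = 0.00109). Gbp9 was higher by 0.96 (adjusted p = 0.0396). Gbp4 and Phf11d passed under each alternative run, while Gbp9, Samd9l, Slfn5, Ifitm3, Ddx60, Iigp1 and Ifi204 lost the call under some. On the arrays numbered 1 the differences were 1.86 for Gbp4, 0.88 for Gbp9, -1.68 for Phf11d, -1.17 for Ddx60, -1.02 for Iigp1, -1.01 for Ifi204, -0.96 for Slfn5 and -0.82 for Ifitm3, and Samd9l did not pass there (-0.74, adjusted p = 0.0844).

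Markers of other cells were read on the same arrays as summed linear intensities. Those of dendritic cells, macrophages and B cells (12 genes) spanned 1265 to 2206 in mTEChi and 986 to 1109 in mTEClo. Those of thymocytes (11 genes) spanned 542 to 2396 in mTEChi and 404 to 524 in mTEClo. The brightest gene was Lyz2 in the first list (log2 9.15 to 10.08 in mTEChi, 8.55 to 8.90 in mTEClo). In the second it was Cd3d (7.32 to 10.12 and 6.11 to 7.11). Ptprc, the gene of CD45 and part of both lists, read 4.79 to 5.84 in mTEChi and 5.26 to 6.11 in mTEClo. The sums weigh bright genes most and do not give the share of such cells. Markers of plasmacytoid dendritic cells (8 genes), which are strong interferon makers, summed to 5637 to 10238 in mTEChi and 5959 to 8287 in mTEClo. That sum was led by Klk1 and Ly6d, with log2 intensities of 11.70 to 12.80 and 10.39 to 11.72 over the 12 arrays. The next gene of the list, Cox6a2, reached 8.79 at most, so the size of the sum mainly reflects Klk1 and Ly6d. Fibroblast and endothelium markers (11 genes) spanned 1014 to 1722 in mTEChi and 1201 to 2513 in mTEClo. No gene of these 4 lists passed between the fractions, and an array has no true zero, so none can be said to be absent. Siglech, which defines plasmacytoid dendritic cells, read 5.08 to 5.90 in mTEChi and 4.81 to 5.23 in mTEClo. The part of these cells in the differences was not tested.

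Loss of Aire in mTEChi moved 0 of 33 interferon response genes past the threshold in limma (0.772% of all genes were lower and 0.0226% higher), and 2 of 33 had an unadjusted p under 0.05, against 1209 of 22154 genes. The median difference was -0.18 over the 33 genes and 0.06 over all genes, and 24 of 33 lay below 0 (72.7%), against 40.7% of all genes. Arrays did not overlap, with Aire-/- lower, for 5 genes (11.6% of all genes), and with Aire-/- higher for 1, Ifi35 (15.9% of all genes). The other, dimmer probe set of Ifi35 did overlap, at 6.36 and 5.91 in Aire-/- mTEChi against 5.97 and 5.46 in Aire+/+ mTEChi. Isg15 read 9.62 and 9.74 in Aire-/- mTEChi, against 10.41 and 10.42 in Aire+/+ mTEChi (difference -0.74, SE 0.232, unadjusted p = 0.0145, adjusted p = 0.499). Bst2 read 10.54 and 10.42 in Aire-/- mTEChi, against 11.16 and 11.21 in Aire+/+ mTEChi (difference -0.70, SE 0.243, adjusted p = 0.606). In both genes the arrays of a group lay close together and the groups stood apart, but the difference did not pass over all genes.

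Oasl1 (-0.52), Mx2 (-0.51) and Rsad2 (-0.34) were the others whose Aire-/- arrays both lay lower. Xaf1 read 7.37 and 6.31 in Aire-/- mTEChi, against 8.61 and 7.35 in Aire+/+ mTEChi, so the lower array of Aire+/+ overlapped, and the difference was -1.14 (SE 0.676, adjusted p = 1). Between arrays of the same number the Xaf1 difference was -1.24 for number 1 and -1.04 for number 2. The main model holds no term for the array number, so the spread between numbers enters its SE in all knockout comparisons in mTEChi. Fits with the array number as a replicate block are given in the closing section on processing. Ifnb1, the ligand gene, read 6.33 and 6.03 in Aire-/- mTEChi, against 7.80 and 7.34 in Aire+/+ mTEChi (difference -1.39, SE 0.413, unadjusted p = 0.0109, adjusted p = 0.426). The summed plasmacytoid dendritic cell markers came to 5637 to 5771 in Aire-/- mTEChi, against 8294 to 10127 in Aire+/+ mTEChi. Klk1 and Ly6d led this sum and read lower. Klk1 had log2 values of 11.77 and 11.83 for Aire-/-, against 12.8 and 12.28 for Aire+/+. Ly6d had 10.61 and 10.58, against 11.3 and 11.49. Il3ra, of the same list, read higher in Aire-/- without overlap. Siglech had log2 values of 5.90 and 5.08 for Aire-/- and of 5.68 and 5.25 for Aire+/+. Siglech and the remaining genes of the list, among them Cox6a2, overlapped between the genotypes. The sum does not give the share of such cells. Fibroblast and endothelium markers summed to 1676 to 1722 in Aire-/- mTEChi and 1021 to 1111 in Aire+/+ mTEChi, and their part was not tested.

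Loss of Brg1 in mTEChi also moved 0 of 33 genes past the threshold in limma (0% of all genes in either direction), and 1 of 33, Trim30a, had an unadjusted p under 0.05, against 301 of 22154 genes. The median difference was 0.14 over the 33 genes and 0.00 over all genes, and 12 of 33 lay below 0 (36.4%), against 49.7% of all genes. Arrays did not overlap, with Brg1-/- higher, for 5 genes (9.77% of all genes) and with Brg1-/- lower for 0 (9.62%). Trim30a read 5.15 and 4.88 in Brg1-/- mTEChi, against 4.45 and 4.47 in Brg1+/+ mTEChi (difference 0.56, SE 0.232, unadjusted p = 0.0455, adjusted p = 1). Isg15 read 10.74 and 10.83 in Brg1-/- mTEChi, against 10.53 and 10.25 in Brg1+/+ mTEChi (difference 0.40, SE 0.232, adjusted p = 1). Bst2, Parp14 and Oas3 were the other 3 whose Brg1-/- arrays both lay higher, with differences of 0.42, 0.56 and 0.19. Ifnb1 read 8.03 and 8.64 in Brg1-/- mTEChi, against 7.81 and 6.73 in Brg1+/+ mTEChi (difference 1.06, SE 0.413, adjusted p = 1).

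**Figure D5:**
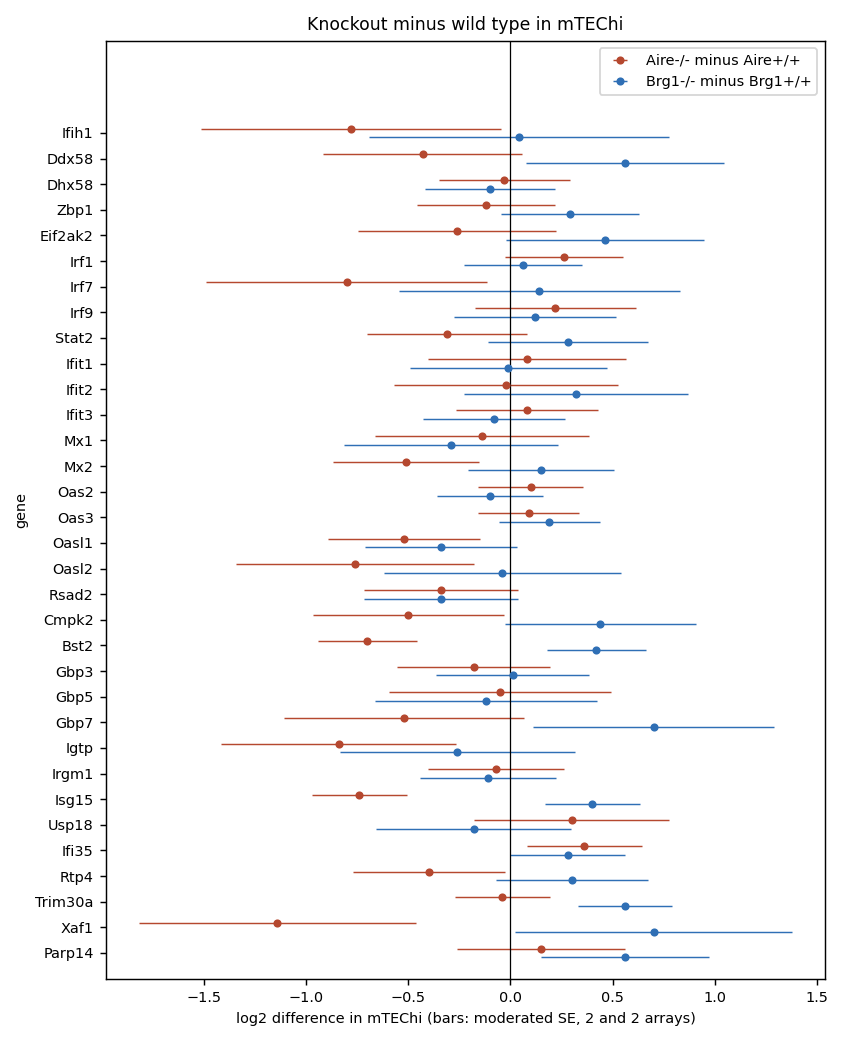
Difference in log2 intensity in mTEChi (x axis) for each of the 33 interferon response genes (y axis, by role), Aire-/- minus Aire+/+ in red and Brg1-/- minus Brg1+/+ in blue, each from 2 and 2 arrays, with bars of 1 moderated SE either way. None passed; Isg15 lies at -0.74 for Aire and 0.40 for Brg1, and Bst2 at -0.70 and 0.42.

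The effects of the knockouts were also set against each other (Brg1 effect minus Aire effect, from separate arrays). In limma 0 of 33 genes passed (0.135% of all genes were higher and 0% lower), 2 of 33 had an unadjusted p under 0.05 against 815 of 22154 genes, and the median was 0.40 over the 33 genes and -0.05 over all genes. Those 2 were Isg15 (1.13, SE 0.328, unadjusted p = 0.00979, adjusted p = 0.68) and Bst2 (1.12, SE 0.344, unadjusted p = 0.0128, adjusted p = 0.763). Ifnb1 differed by 2.46 (SE 0.584, unadjusted p = 0.00348, adjusted p = 0.416). Loss of Aire and loss of Brg1 gave these 3 genes differences of opposite sign, and none of the 3 passed over all genes. They were named here for a small p in this same comparison, a choice that favours opposite signs. For Ifnb1 the arrays numbered 1 read 8.03 in Brg1-/- and 7.81 in Brg1+/+ mTEChi, and those numbered 2 read 8.64 and 6.73.

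In mTEClo each genotype has 1 array, and its spread was taken from the mTEChi groups. Loss of Aire and loss of Brg1 each moved 0 of 33 genes past the threshold in limma (0% of all genes), with 0 of 33 at an unadjusted p under 0.05, against 298 of 22154 genes for Aire and 382 for Brg1. The median difference over the 33 genes was -0.19 for Aire and 0.24 for Brg1, against 0.04 and -0.01 over all genes. For Aire 72.7% of the 33 genes lay below 0, against 44.0% of all genes. For Brg1 the shares were 24.2% and 51.0%. Isg15 read 11.36 in Aire-/- and 11.34 in Aire+/+ mTEClo, and 11.59 in Brg1-/- and 11.45 in Brg1+/+ mTEClo. Stat2, with 7.61 in Brg1-/- and 6.68 in Brg1+/+ mTEClo, had the highest difference of the Brg1 comparison at 0.93 (adjusted p = 1). Ifih1 was lowest in the Aire comparison, with 7.90 in Aire-/- and 8.87 in Aire+/+ mTEClo.

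Whether the mTEChi to mTEClo difference changed with genotype was tested directly. By Aire genotype and by Brg1 genotype, 0 of 33 genes passed in limma (0% of all genes), and the medians were -0.08 and -0.04. At an unadjusted p under 0.05 the count was 0 of 33 in both, against 547 of 22154 genes by Aire genotype and 296 by Brg1 genotype. For Isg15 the mTEChi minus mTEClo difference in Aire-/- minus that in Aire+/+ was -0.76, and on the arrays numbered 1 it was -1.74 in Aire-/- and -0.93 in Aire+/+, against -0.85 in Brg1-/- and -0.92 in Brg1+/+. Isg15 read lower in mTEChi in each of the 4 genotypes, and the size of the difference was not shown to depend on genotype.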

How the data were processed

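Sorted mTEChi and mTEClo RNA was hybridised to 12 arrays. The deposited table gives 1 linear intensity for each of 33732 probe sets, and the software listed in the submitters' processing notes comprises Transcriptome Analysis Console, Affymetrix Expression Console and RMA, whose roles are not given in the sources used here. RMA as commonly run makes arrays alike in distribution, but the medians of these arrays differed by array number. They were 5.25 to 5.32 on arrays numbered 1 and 5.07 to 5.12 on arrays numbered 2. Background compresses fold changes of dim genes. The number of arrays limits the precision. Intensities were taken to log2, with no further normalization, no pseudocount and no filter on low values. Platform annotation gave 23491 probe sets 1 symbol, 1811 several and 8430 none, and the probe set with the highest mean was kept per gene, leaving 22154 genes. Ifi35 alone among the members had another probe set.

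Groups follow the labels' genotype and cell type. One model of 8 group means was fitted over the 12 arrays in R 4.3.3 with limma 3.58.1 (lmFit, eBayes, two-sided, 4 residual and 3.46 prior degrees of freedom), with Benjamini-Hochberg adjustment over 22154 genes, and SE is limma's moderated standard error. The lone mTEClo arrays were assumed to vary like the mTEChi groups. Steps were tested on simulated arrays with independent noise. That simulation held no effect shared by arrays of 1 number, so it does not check error rates under such an effect. Promoters were read in Python 3.11.15. Members, lists and comparisons were chosen with earlier results of these data known. In each comparison the text names the members that pass and up to 10 others with the largest difference whose arrays do not overlap, and from other lists those that pass and up to 4 more with the smallest p. Irf7, Isg15 in mTEClo, Ifng, Socs1, Oasl1 on the arrays numbered 1 and other members near 0 were named after their values were seen. Alternatives were replicate blocks, centring, quantile normalization, a filter on dim genes, all probe sets, an intensity trend, arrays numbered 1, the mTEChi arrays alone and leaving out each array.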

Additional observations from a re-analysis of the deposited data

How the results depend on the processing

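No called difference changed sign, and counts of 0 stayed at 0 under all alternatives except the replicate blocks. The array number was fitted as a replicate block, by line or common to both lines, with 2 and 3 residual degrees of freedom. The labels do not say that the numbers pair the samples, and each mTEChi comparison has 2 arrays a group. With either replicate block, 1 member, Xaf1, passed as lower in Aire-/- mTEChi (-1.14, adjusted p = 0.0316 with the block by line), and 1, again Xaf1, passed as higher for the Brg1 effect minus the Aire effect (1.84, adjusted p = 0.0362). Members lower in mTEChi with the 4 genotypes averaged numbered 17 with either block, against 11 without. In the wild types the count of 1 became 13 with the block by line and 12 with the block common to both lines. It became 2 with each array centred on its median, 3 with quantile normalization, 4 among genes above the median level and 7 on the arrays numbered 1. Leaving out single arrays gave 0 to 1 in the wild types and 5 to 11 with the 4 genotypes averaged. Leaving out mTEClo arrays was added after the data were seen. With 1 array in each mTEClo group, differences between genotypes there have no replicate check, and values near background have no known lower limit.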

Other observations

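In the wider list of 55 measured interferon-induced genes, 0 passed in either knockout comparison in mTEChi, and a few had array values that stood apart between genotypes. Oas1g, a relative of the oligoadenylate synthetases, had log2 intensities of 3.83 and 3.68 in Aire-/- mTEChi, against 5.80 and 4.53 in Aire+/+ mTEChi (difference -1.41, SE 0.518, unadjusted p = 0.0278, adjusted p = 0.699 in limma). Apol9b, an apolipoprotein L gene, had 4.24 and 4.09 in Aire-/- mTEChi, against 5.13 and 5.29 in Aire+/+ mTEChi (difference -1.04, SE 0.382, adjusted p = 0.694). In mTEClo, Apol9b had 5.05 in Aire-/- and 6.31 in Aire+/+, and 6.93 in Brg1-/- and 5.65 in Brg1+/+, with 1 array each. Sp100, a component of PML nuclear bodies, was 9.87 and 9.82 in Brg1-/- mTEChi, against 9.15 and 7.92 in Brg1+/+ mTEChi (difference 1.31, SE 0.393, adjusted p = 1). Its Aire-/- mTEChi arrays, at 9.52 and 9.38, also lay above Aire+/+ mTEChi, at 8.72 and 8.47 (difference 0.85, SE 0.393, unadjusted p = 0.0635 in limma). None of these 3 genes passed over all genes, and close relatives in the Oas and Apol9 families may share probes.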
